A study of Saccharomyces cerevisiae with 8 samples.

Results

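Transcript levels of yeast that grew on zinc-loaded plates while expressing the plant defensin AhPDF1.1b were set against those of untreated yeast, which had neither the defensin nor added zinc. The comparison rests on 4 of the 8 arrays of the series, 2 arrays per condition, chosen by the sample labels alone. The strain was Saccharomyces cerevisiae BY4741 (MATa, his3Δ1, leu2Δ0, met15Δ0, ura3Δ0), and every sample carried the empty HIS3 vector pFL38H. In the zinc plus AhPDF1.1b yeast the defensin was expressed from plasmid pYX212, a URA3 vector with the constitutive TPI promoter, and the solid medium held 20 mM ZnSO4. The untreated yeast did not express AhPDF1.1b and its medium had no added zinc. The labels name no empty pYX212 for it, but the signal of URA3 given below shows that it too carried a URA3 gene. The remaining 4 arrays held AhPDF1.1b yeast without added zinc and zinc-treated yeast without AhPDF1.1b, and they serve here for the spread and for side values. The arrays of zinc alone lay on another slide than those of zinc plus AhPDF1.1b. The main fit has no term for slide, so each difference given below between these 2 conditions also holds any difference between slides. Cells were harvested from plates at a like colony size, so the levels describe cells that had grown in the presence of zinc, and tolerance itself was not measured on the arrays. Because both factors differ between the compared conditions, a change here cannot be assigned to zinc or to the defensin unless the side values of the other conditions are read with it.

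Zinc is an essential cofactor of many yeast enzymes and transcription factors and is toxic in excess. Its uptake is governed by the activator Zap1, which is active when the cell is short of zinc, and surplus zinc is moved into the vacuole or the secretory pathway. Zinc in excess is also known to disturb the use of iron, whose uptake genes are driven by the activator Aft1. Plant defensins are small cysteine-rich proteins, and AhPDF1.1b comes from the zinc-tolerant plant Arabidopsis halleri. When made in yeast it is retained inside the cell, in the endoplasmic reticulum (ER) among other compartments.

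The deposited values were log2 signals, with array medians between 8.45 and 8.46, and replicate arrays correlated across genes at 0.996 to 0.998. Of 6226 genes on the array, 4060 had a symbol. The 2 deleted marker genes LEU2 and MET17 read 5.54 to 5.79 on all arrays, a level at or above that of 4.47% of the genes. The a-cell genes of the labelled mating type were present in untreated yeast, and of the 4 alpha-cell markers MF(ALPHA)2 read 5.66 to 5.92, STE3 6.76 to 7.19 and SAG1 7.90 to 8.12 over the 4 arrays compared, while MF(ALPHA)1, which encodes alpha-factor, read 8.41 and 8.36 in untreated yeast and 6.28 and 6.32 with zinc plus AhPDF1.1b. The plasmid marker URA3 read 15.40 and 15.50 in untreated yeast and 14.54 and 14.40 in zinc plus AhPDF1.1b yeast (log2 fold change -0.97 ± 0.10 SE, adjusted p = 2.7e-05 in limma). The strain's own URA3 is deleted, so a level this far above that of LEU2 and MET17 shows a URA3 gene in the untreated yeast as well. An empty pYX212, the control vector of other assays in the study, would carry one, but the labels of the arrays do not name its source. HIS3, the marker of the vector shared by all samples, was 0.47 ± 0.09 higher (adjusted p = 0.00092). With AhPDF1.1b alone URA3 was at -1.12 and HIS3 at 0.16, and with zinc alone URA3 was at 0.15 and HIS3 at 0.83. The part of these differences of the plasmid markers in the results that follow was not tested.

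In zinc plus AhPDF1.1b yeast, 3215 of 6226 genes differed from untreated yeast at an adjusted p under 0.05 (51.6%), 1529 of them higher (24.6%) and 1686 lower (27.1%). These shares are the background for every gene group below, and the median log2 fold change over all genes was -0.02. With a log2 fold change of 1 or more also required, 195 genes were higher (3.13%) and 98 lower (1.57%). For each of the 3215 genes the 2 arrays of one condition lay entirely above or below the 2 arrays of the other. The test used the same values, so this separation largely follows from passing it and adds no separate support. Features without a symbol made up 545 of the higher and 419 of the lower genes, and the largest increase of all, 3.39, belonged to such a feature.

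The largest increase of a named gene was that of YPS3, a cell-surface aspartyl protease. It read 7.44 and 7.55 in untreated yeast and 10.61 and 10.42 with zinc plus AhPDF1.1b, which is 8.13-fold higher (log2 fold change 3.02 ± 0.11, adjusted p = 1.1e-08). PST1, a wall protein known to be induced by cell wall damage, went from 9.61 and 9.55 to 12.62 and 12.47, 7.81-fold higher. MCH5, the riboflavin transporter of the plasma membrane, rose 7.42-fold, from 8.26 and 8.33 to 11.31 and 11.06. For all 3 genes the gap between the conditions was many times the gap between replicate arrays. Other large increases were those of the polyamine exporter TPO2 (log2 fold change 2.71), BTN2, which sorts misfolded proteins (2.11), the meiotic regulator IME1 (2.08), the pheromone-regulated gene PRM10 (1.99), the arginase CAR1 (1.97) and ISU2, a scaffold for iron-sulfur clusters (1.89). The other 6 of the 15 largest were iron genes and are described below.

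Among the 15 largest decreases, 5 encode thiazole or pyrimidine synthesis for thiamine, 2 zinc-responsive surface proteins and 3 products of a cells. LYS9, which makes an enzyme of lysine synthesis, read 12.41 and 12.59 in untreated yeast and 10.12 and 10.27 with zinc plus AhPDF1.1b, 4.95-fold lower (log2 fold change -2.31 ± 0.09, adjusted p = 1.6e-08). BIO5, for uptake of biotin precursors, was 4.91-fold lower and UTR2, a wall transglycosylase that links chitin to glucan, 4.49-fold lower. PHO3, an acid phosphatase that frees thiamine from its phosphates, fell from 9.01 and 9.08 to 6.71 on both arrays. DSE2, a gene expressed in daughter cells, completed the 15 with a fold change of -2.32 on the log2 scale.

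**Figure D1:**
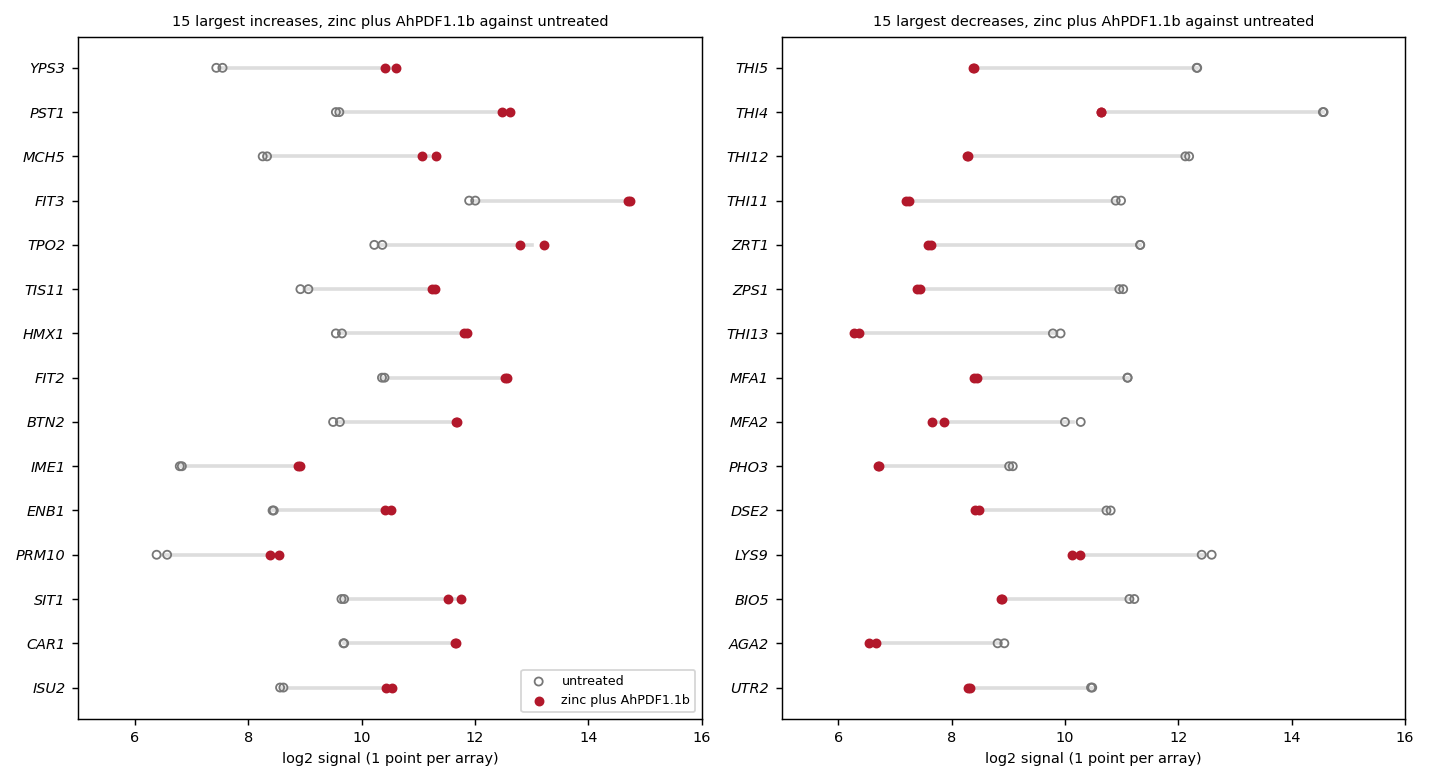
Log2 signal on each array for the 15 named genes with the largest increases (left) and the 15 with the largest decreases (right), open circles for the 2 untreated arrays and filled circles for the 2 arrays of zinc plus AhPDF1.1b. In every row the filled and open circles stand apart, with log2 fold changes of 1.89 (ISU2) to 3.02 (YPS3) on the left and of -2.17 (UTR2) to -3.95 (THI5) on the right.

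All 9 measured genes of zinc uptake and of the Zap1 regulon passed the test, 8 lower and 1 higher, with a median of -0.61. ZRT1, the high-affinity zinc transporter, read 11.33 and 11.32 in untreated yeast and 7.64 and 7.58 with zinc plus AhPDF1.1b, 13.1-fold lower (log2 fold change -3.72 ± 0.06, adjusted p = 5.1e-11). ZPS1, a cell-surface protein of the same regulon, went from 11.03 and 10.96 to 7.39 and 7.43, 11.9-fold lower. The low-affinity transporter ZRT2 fell by 1.34 on the log2 scale and the activator ZAP1 itself by 0.80. Zinc alone gave -3.72 for ZRT1, -3.93 for ZPS1, -1.77 for ZRT2 and -0.97 for ZAP1, and AhPDF1.1b alone gave -0.73, -1.23, -0.08 and -0.34 for the same genes, ZRT2 not passing there (adjusted p = 0.56). Against zinc-treated yeast without the defensin, the difference of ZRT1 was -0.00 ± 0.06 (adjusted p = 1) while ZPS1 was 0.35 higher (adjusted p = 0.0017). The phosphatase gene DPP1 was at -0.48, the vacuolar exporter ZRT3 at -0.39 (-0.36 and no longer passing without replicate 2 of untreated yeast) and ADH4, an alcohol dehydrogenase, at -0.61, and the low-affinity iron transporter FET4, whose transport range includes zinc, was the gene that rose, by 0.24 (adjusted p = 0.017). The rise of FET4 did not pass without replicate 1 (0.22) or replicate 2 (0.27) of untreated yeast or without replicate 1 of zinc plus AhPDF1.1b (0.18).

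Genes for the transport of zinc and other metals at the vacuole, the ER and other membranes changed in both directions. Of 15 measured, 6 were higher (40.0%), 4 lower (26.7%) and 5 not passing (median 0.11), against 24.6% and 27.1% of all genes. COT1, which transports zinc and cobalt into the vacuole, read 11.08 and 11.11 in untreated yeast and 12.21 and 12.05 with zinc plus AhPDF1.1b, 2.05-fold higher. ZRC1, the main vacuolar zinc transporter, moved the other way, from 10.02 and 9.94 to 9.40 and 9.46 (log2 fold change -0.55 ± 0.09, adjusted p = 0.00051). With zinc alone ZRC1 read 9.99 and 10.01, and the level with zinc plus AhPDF1.1b was 0.57 below it (adjusted p = 0.00052). PCA1, a P-type ATPase known for cadmium export, was 2.74-fold higher, and the manganese transporter SMF1 and the vacuolar calcium pump PMC1 rose by 0.80 and 0.63. CCC1, which loads iron and manganese into the vacuole, fell by 0.60. For the ER zinc transporters, MSC2 was 0.23 higher (adjusted p = 0.045, not passing at 0.20 to 0.26 without any 1 of the 4 arrays) and its partner ZRG17 was at -0.12 (adjusted p = 0.32).

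In the iron regulon of Aft1, 21 of 25 measured members were higher, 12 of them by at least 1 on the log2 scale, and the median was 0.97. FIT3, a wall mannoprotein that retains siderophore iron, read 12.01 and 11.90 in untreated yeast and 14.74 and 14.71 with zinc plus AhPDF1.1b, 6.83-fold higher (log2 fold change 2.77 ± 0.07, adjusted p = 7e-10). Its relative FIT2 rose 4.49-fold, from 10.36 and 10.40 to 12.57 and 12.53. The siderophore transporters ENB1 and SIT1 were 4.08-fold and 3.93-fold higher. TIS11, which marks mRNAs of iron-using proteins for decay, went from 9.06 and 8.92 to 11.25 and 11.30, and HMX1, a heme oxygenase, from 9.65 and 9.55 to 11.81 and 11.87. The oxidase of high-affinity iron uptake, FET3, was 2.78-fold higher, whereas its permease partner FTR1 was at 0.12 ± 0.07 (adjusted p = 0.19), FRE4 at 0.11 and the biotin transporter VHT1 at -0.10, none of them passing. FIT1 was the member that fell, by 0.39.

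The iron genes differed in how they stood against the other conditions. With zinc alone FIT3 was 2.78 higher than untreated and FIT2 2.19, close to the values with zinc plus AhPDF1.1b, and the defensin made a difference of -0.00 (adjusted p = 0.97) and -0.02 (adjusted p = 0.85) under zinc. HMX1 and TIS11 were a further 0.77 and 0.48 higher with the defensin than with zinc alone (adjusted p = 1.2e-05 and 0.0004), a step that also crosses slides. For FET3 the difference between zinc plus AhPDF1.1b and zinc alone was -0.43 (adjusted p = 0.011). Of the iron users, genes for heme and iron-sulfur cluster synthesis gave 5 higher and 6 lower of 22 (median -0.07), HEM1, the first enzyme of heme synthesis, falling by 0.81, and the higher count was 3 without replicate 1 of either condition. ACO1, the iron-sulfur enzyme aconitase, fell by 1.06.

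Thiamine synthesis held 6 of the 15 largest decreases. Of 18 measured genes 15 were lower, 9 of them by at least 1, with a median of -0.84. THI4, the thiazole synthase, read 14.55 and 14.56 in untreated yeast and 10.64 and 10.63 with zinc plus AhPDF1.1b, 15.2-fold lower (log2 fold change -3.92 ± 0.06, adjusted p = 4.4e-11). Its level was 14.13 and 14.20 with the defensin alone and 14.39 and 14.45 with zinc alone, so that 1 condition stood low and the other 3 high without overlap. The family of THI5, THI11, THI12 and THI13, which makes the pyrimidine part, was 15.4-, 13.2-, 14.7- and 11.6-fold lower, and its 4 near-identical members cannot be told apart here. That family was also low with zinc alone, THI5 reading 7.58 and 7.55 there against 8.39 and 8.38 with zinc plus AhPDF1.1b and 12.33 and 12.32 in untreated yeast. The log2 fold change was -1.5 for the thiamine transporter THI7, -1.68 for PET18, -1.07 for the kinase gene THI20 and -0.61 for the regulator THI2. THI4, PHO3, PET18, THI20, THI7, THI2 and THI21, 7 genes in all, were lower than in each of the other 3 conditions. The exception in sign was SNO2, higher by 0.25, a call that was lost, at 0.19 to 0.26, without either untreated array, without replicate 2 of zinc plus AhPDF1.1b and with slide as a block, and the gene was among the dimmest 25%.

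Other vitamin genes moved too. Of 14 genes for biotin and riboflavin, 4 were higher and 6 lower. Besides BIO5, the biotin synthase BIO2 was 2.55-fold lower, and BIO3 and BIO4, which act before it, fell by 1.11 and 0.53. The riboflavin synthesis genes RIB4 and RIB5 rose by 0.45 and 0.48, beside the 2.89 of the transporter MCH5.

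Sulfate assimilation and methionine synthesis were largely raised, with 25 of 36 measured genes higher, 2 lower and a median of 0.55. The sulfate permease gene SUL2 read 10.99 and 11.01 in untreated yeast and 12.76 and 12.51 with zinc plus AhPDF1.1b (log2 fold change 1.63 ± 0.09, adjusted p = 1.6e-07). MET3, MET14 and MET16, which carry out the first steps of sulfate reduction, rose by 1.15, 1.47 and 1.18, and the sulfite reductase subunit MET5 by 1.29. CYS3, which makes cysteine from cystathionine, was 3.16-fold higher, from 11.55 and 11.87 to 13.32 and 13.42, and the low-affinity methionine permease MUP3 2.54-fold higher. The transcriptional activator MET4 rose by 0.60 (adjusted p = 0.00061). The steps differed in their side values: MET16 was 2.39 higher with zinc alone, and with the defensin under zinc it was 1.21 lower than that, while MET5 was 0.36 higher with the defensin under zinc. The strain lacks MET17, which joins sulfide to the carbon chain, in every sample.

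**Figure D2:**
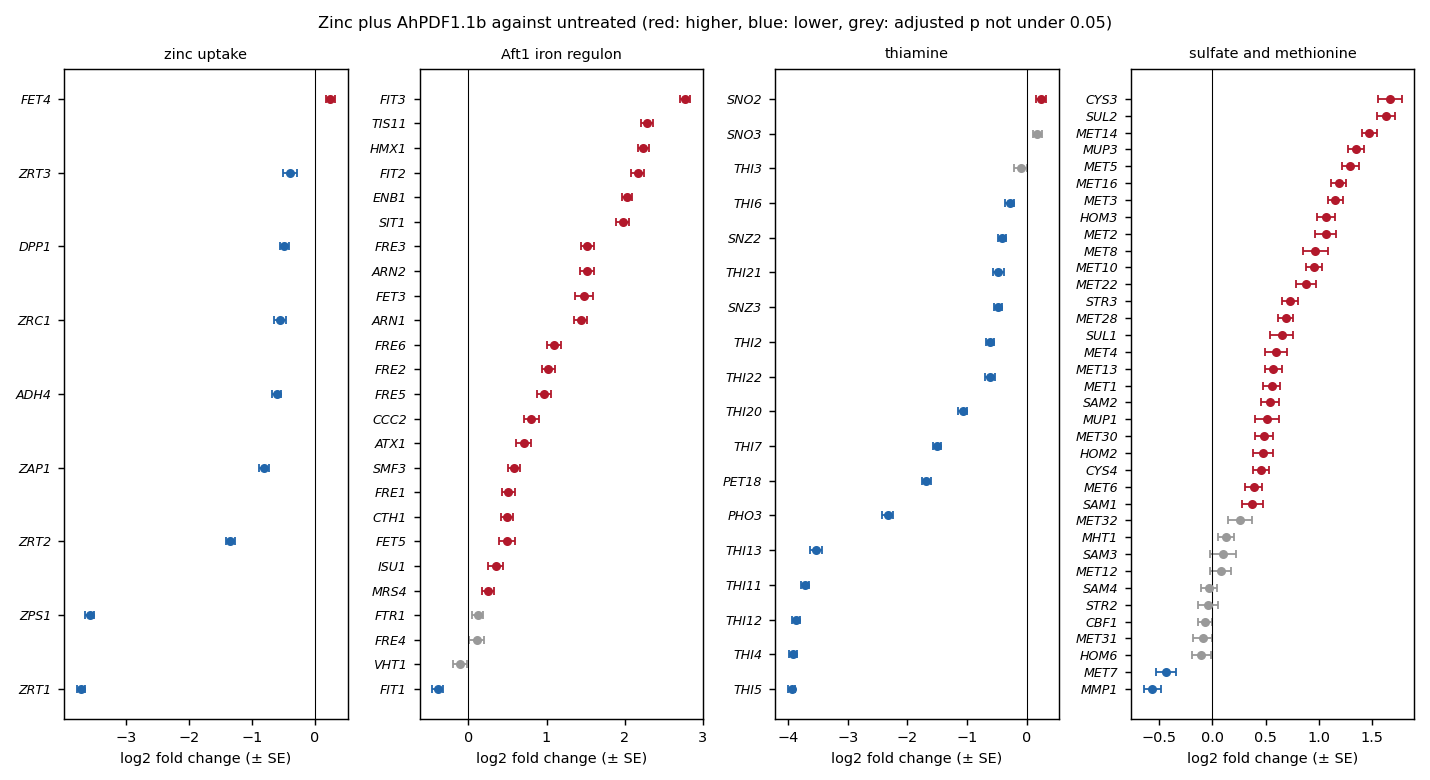
Log2 fold change of zinc plus AhPDF1.1b against untreated yeast for every measured gene of zinc uptake, the Aft1 iron regulon, thiamine synthesis and sulfate and methionine metabolism, points with bars of 1 SE from the limma fit, red higher, blue lower and grey not passing. Zinc uptake and thiamine genes lie mostly left of 0, down to -3.72 and -3.95, and iron and sulfur genes mostly right of it, up to 2.77 and 1.66.

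The ER is one of the compartments where AhPDF1.1b is retained. Of 18 measured folding genes 3 were higher, 7 lower and 8 not passing, with a median of -0.15. KAR2, the Hsp70 chaperone of the ER lumen, read 12.04 and 12.09 in untreated yeast, 12.34 and 12.50 with the defensin alone, 12.52 and 12.59 with zinc alone and 12.85 and 12.86 with both. The 2 arrays of zinc plus AhPDF1.1b were thus above all 6 others, 1.73-fold above untreated yeast (log2 fold change 0.79 ± 0.07, adjusted p = 9e-06). In the interaction of the limma fit, the zinc effect on KAR2 did not pass as different between AhPDF1.1b yeast and yeast without it. JEM1 and EPS1, with 0.25 and 0.22, were the other higher genes, and KAR2 was the sole higher gene without replicate 1 of zinc plus AhPDF1.1b or without either untreated array. EUG1, a relative of the disulfide isomerase PDI1, was 2.0-fold lower (log2 fold change -1.0) and the glucosidase CWH41 1.72-fold lower, and PDI1 was at -0.03 ± 0.16 (adjusted p = 0.89). The 4 genes of unfolded protein signalling did not pass: HAC1 was at 0.13, IRE1 at 0.11, TRL1 at -0.08 and PTC2 at -0.21. PTC2 was the 1 of these 4 with an unadjusted limma p under 0.05 (adjusted p = 0.058), and without replicate 1 of untreated yeast it was at -0.29 (adjusted p = 0.044). HAC1 read 12.19 and 12.25 with zinc alone and 11.69 and 11.54 with zinc plus AhPDF1.1b, close to the 11.42 and 11.56 of untreated yeast, and a single value per gene does not separate its spliced and unspliced forms.

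Genes for ER-associated degradation, which returns misfolded proteins to the cytosol, gave 7 higher and 3 lower of 18 (median 0.11). The largest rise was that of UFD1, a partner of the extraction ATPase Cdc48, from 8.5 and 8.38 to 9.16 and 9.24. The ubiquitin ligase HRD1 read 8.22 and 8.20 in untreated yeast and 8.66 and 8.61 with zinc plus AhPDF1.1b, 1.34-fold higher (adjusted p = 0.00066), and was between 8.12 and 8.31 on the arrays of the other 2 conditions. NPL4 and UBC7 rose by 0.35 and 0.40, and the lower genes were CUE1, UBX2 and CDC48, of which 1 passed without replicate 1 of zinc plus AhPDF1.1b or without either untreated array. Genes for entry into the ER and transport to the Golgi were lower in 17 of 30 cases and higher in 1 (median -0.34), with SEC61, the translocation channel, at -0.54 and SEC66 at -0.80. Protein glycosylation likewise gave 15 lower and 1 higher of 26 (median -0.31), ALG7, the first enzyme of the lipid-linked sugar pathway, falling by 0.57. Of 17 subunits and assembly factors of the vacuolar ATPase 13 were lower and none higher (median -0.36), VMA2 falling by 0.82. With zinc alone the medians were -0.44 for ER entry and transport, -0.52 for glycosylation and -0.45 for the vacuolar ATPase.

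**Figure D3:**
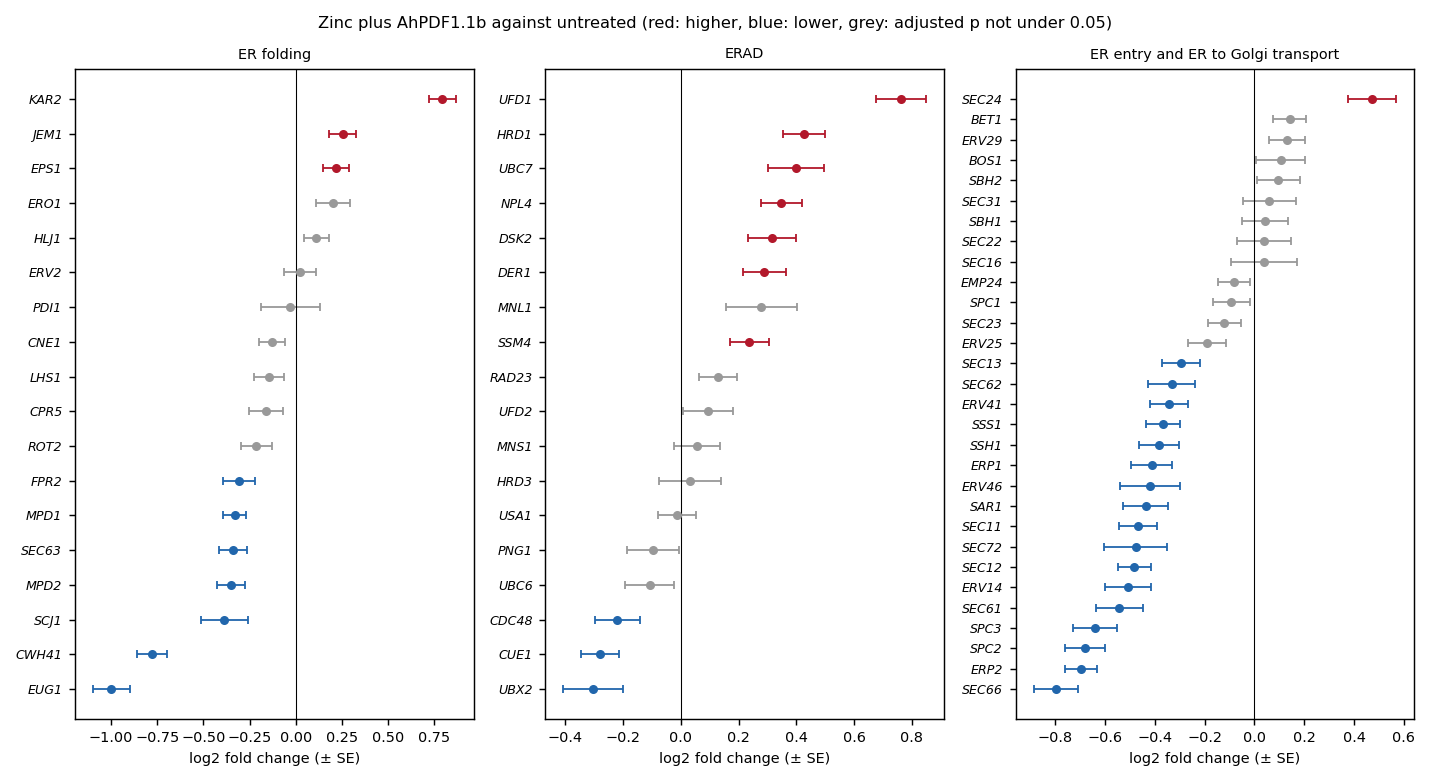
Log2 fold change of zinc plus AhPDF1.1b against untreated yeast for the measured genes of ER folding, ER-associated degradation (ERAD) and ER entry with ER to Golgi transport, points with bars of 1 SE from the limma fit, red higher, blue lower and grey not passing. KAR2 at 0.79 and UFD1 at 0.76 stand at the right end of their panels, and most points of the third panel lie left of 0.

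Cytosolic and mitochondrial chaperones rose in 19 of 23 cases and fell in the other 4 (median 0.58). HSP82, an Hsp90 of the cytosol, read 11.77 and 11.72 in untreated yeast and 13.01 and 12.93 with zinc plus AhPDF1.1b, and its cochaperone HCH1 went from 9.0 and 8.95 to 10.43 and 10.37, 2.33-fold and 2.69-fold higher. The disaggregase HSP104 and the Hsp70 genes SSA1 and SSA2 rose by 0.74, 0.67 and 0.69, while the ribosome-bound Hsp70 SSB1 fell by 0.73 and the plasma membrane protein HSP30 by 0.88. Genes of the general stress response under Msn2 and Msn4 did not share this direction, with 9 higher and 13 lower of 29 (median -0.09). Within it the log2 fold change was 1.85 for SSA4 and -1.51 for SSA3, both Hsp70 genes, -1.53 for the hydrophilin GRE1 and -1.21 for HSP12, a membrane-stabilising stress protein. Of 34 proteasome genes 11 were higher, 2 lower and 21 not passing (median 0.12), RPN4, their transcriptional activator, being 0.78 higher. The higher proteasome count was 6 without replicate 2 of zinc plus AhPDF1.1b and 7 without replicate 2 of untreated yeast. Glutathione, thioredoxin and oxidative defence genes gave 9 higher and 10 lower of 35, GSH1, the first enzyme of glutathione synthesis, rising by 0.57.

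Transcripts for the cell wall changed in both directions, 55.2% being higher and 31.0% lower, against 24.6% and 27.1% of all genes. Of 29 measured genes for the cell wall and its integrity pathway 16 were higher, 8 of them by at least 1, and 9 were lower, 4 of them by at least 1 (median 0.35). SLT2, the MAP kinase of the pathway, read 10.44 and 10.47 in untreated yeast and 12.34 on both arrays with zinc plus AhPDF1.1b, 3.70-fold higher (log2 fold change 1.89 ± 0.06, adjusted p = 6.6e-09), and RLM1, the transcription factor it activates, rose by 0.93. The wall protein PIR3, the chitin synthase CHS1 and the glucanase EXG1 were 3.16-fold, 3.02-fold and 2.40-fold higher. UTR2, TIP1, CWP2 and GAS3 stood against this trend with log2 fold changes of -2.17, -1.45, -1.35 and -1.30. The anaerobic wall mannoproteins rose together with other genes known from hypoxia, 11 of 15 being higher and 2 lower (median 0.61). TIR3, TIR2, TIR4, TIR1 and DAN1 were higher by 1.49, 0.94, 0.82, 0.81 and 0.61, and ROX1, the repressor of such genes, by 0.85.

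Genes of a-cell identity and the pheromone response fell in 18 of 20 listed cases and rose in none, with a median of -0.73. The pheromone-regulated gene PRM10, 1.99 higher, was not on this list. The median of the 20 listed genes was -0.90 with zinc alone and -0.07 with AhPDF1.1b alone. MFA1, which encodes the a-factor pheromone, read 11.10 on both untreated arrays and 8.39 and 8.44 with zinc plus AhPDF1.1b, 6.43-fold lower (log2 fold change -2.69 ± 0.10, adjusted p = 1.1e-08). MFA2, the second a-factor gene, was 5.2-fold lower, the agglutinin subunit AGA2 4.79-fold, the protease BAR1 3.13-fold, the a-factor exporter STE6 2.65-fold and ASG7 2.58-fold. Zinc alone gave log2 fold changes of -2.52 for MFA1, -1.87 for MFA2, -1.80 for AGA2, -1.76 for BAR1, -1.97 for STE6 and -0.99 for ASG7. With AhPDF1.1b alone these genes were at -0.19 (MFA1) to 0.09 (BAR1). The receptor gene STE2 was at -0.10 ± 0.10 (adjusted p = 0.44), reading 8.92 and 8.81 in untreated yeast and 8.74 and 8.79 with zinc plus AhPDF1.1b. Its arrays read 10.57 and 10.49 with the defensin alone and 7.94 and 7.60 with zinc alone, so the conditions compared here were alike while those in between were not. The transcription factor STE12 of the pathway was at -0.75 and FAR1, which halts the cycle for mating, at -1.25.

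Genes for the separation of daughter cells gave 6 lower and 2 higher of 10. Their median was -0.34, against -1.04 with zinc alone and -0.26 with AhPDF1.1b alone. DSE2 read 10.80 and 10.73 in untreated yeast and 8.41 and 8.48 with zinc plus AhPDF1.1b, the chitinase CTS1 went from 11.56 and 11.57 to 9.85 and 9.89, and SUN4 from 10.06 and 9.88 to 8.55 and 8.69. DSE4, a glucanase of the septum, rose by 0.99, from 9.29 and 9.34 to 10.25 and 10.37, where zinc alone gave 8.78 on both arrays. ASH1, a daughter-cell repressor, rose by 0.41, and DSE1 and SCW11 fell by 0.54 and 0.36. Of 18 cyclins and cycle regulators 9 were lower and 1 higher (median -0.25), the mitotic cyclins CLB1 and CLB2 being at -1.17 and -1.0, and 3 rather than 9 were lower when the dimmest 25% of genes were left out.

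Of 20 measured genes of glycolysis and fermentation 11 were lower, 4 higher and 5 not passing (median -0.30). Their median was 0.30 with zinc alone and -0.01 with AhPDF1.1b alone. The enolase gene ENO2 read 13.84 and 14.05 in untreated yeast, 14.10 and 13.86 with the defensin alone, 14.61 and 14.62 with zinc alone, and 12.03 and 12.05 with zinc plus AhPDF1.1b, 3.73-fold below untreated yeast (log2 fold change -1.90 ± 0.09, adjusted p = 1e-07). TDH3 and TDH2, for glyceraldehyde phosphate dehydrogenase, were 2.76-fold and 2.39-fold lower and PGK1, phosphoglycerate kinase, 1.92-fold lower, and all 3 were below each of the other conditions. TPI1, whose promoter drives the defensin on the plasmid, fell by 0.64, from 14.97 and 14.89 to 14.24 and 14.32. The decarboxylase genes PDC6 and PDC5 rose by 1.16 and 0.98, and PDC5 had been 3.39 higher with zinc alone. Near-identical copies such as ENO1 and ENO2 or the TDH genes may share signal on these probes.

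Of 23 genes for hexose transport and its control 11 were higher and 4 lower. HXT4 read 10.79 and 10.63 in untreated yeast and 12.62 and 12.52 with zinc plus AhPDF1.1b, 3.63-fold higher, against at most 10.5 with zinc alone. HXT1 and HXT3, the low-affinity transporters, were 2.80-fold and 2.46-fold higher, and HXT2 1.87-fold lower. Without the dimmest 25% of genes 6 rather than 11 were higher. In the TCA and glyoxylate cycles 12 of 27 genes were lower and 4 higher (median -0.14), ICL1, the isocitrate lyase, rising by 1.33, and the higher count was 2 with slide as a block or without replicate 2 of either condition. Respiratory chain and ATP synthase genes gave 18 lower and 3 higher of 34 (median -0.28), CYC1, cytochrome c, falling by 0.71, and 1 was higher without replicate 2 of untreated yeast. With zinc alone the median was -0.71 for the respiratory genes and -0.63 for the TCA and glyoxylate genes. With AhPDF1.1b alone it was 0.13 and 0.06.

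Genes of lipid synthesis changed in both directions, as did all genes (24.6% higher and 27.1% lower). Of 26 genes of ergosterol synthesis 10 were higher, 6 lower and 10 not passing (median 0.03). ERG3 and ERG25, which desaturate and demethylate the sterol ring, read 11.58, 11.49 and 11.78, 11.75 in untreated yeast and 12.79, 12.87 and 12.72, 12.87 with zinc plus AhPDF1.1b, 2.46-fold and 2.04-fold higher. The sterol regulator UPC2 was 2.67-fold higher, the reductase NCP1, which serves sterol enzymes, 2.09-fold and ERG4, the last enzyme of the pathway, 1.80-fold. ERG20, an early enzyme, was 1.56-fold lower. All 10 of the higher genes were also higher than with zinc alone and with the defensin alone, as were 508 of the 1529 higher genes on the whole array. The zinc arrays with and without the defensin lie on different slides, so those arrays by themselves do not separate slide from defensin. OLE1, the fatty acid desaturase, read 13.09 and 13.01 in untreated yeast and 14.53 and 14.74 with zinc plus AhPDF1.1b (log2 fold change 1.58 ± 0.08, adjusted p = 1.2e-07). Its level was 12.96 and 12.97 with the defensin alone and 13.36 and 13.30 with zinc alone. In fatty acid and sphingolipid synthesis as a whole 11 of 26 were higher and 7 lower, the elongase ELO1 being 2.07-fold lower, and the higher count was 7 without replicate 1 of zinc plus AhPDF1.1b. Phospholipid genes were mostly lower, 11 of 18 with 2 higher (median -0.28), INO1 and CHO1, the first enzymes of inositol and phosphatidylserine synthesis, falling by 0.75 and 0.82. The median of the 18 genes was -0.58 with zinc alone and -0.14 with AhPDF1.1b alone. INM1, an inositol monophosphatase, was 1.15 higher, against 4.66 with zinc alone.

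Ribosome biogenesis and RNA polymerase I gave 35 lower and 1 higher of 49 measured (median -0.54), with the nucleolar gene NSR1 falling from 11.59 and 11.48 to 9.90 and 10.14, 2.86-fold lower, and MAK16, for the large subunit, 2.30-fold lower. Cytosolic ribosomal protein genes were lower in 56 of 134 cases and higher in 9, with a median of -0.17. The lower count was 34 without replicate 1 of zinc plus AhPDF1.1b and 35 without replicate 1 of untreated yeast, and the higher count ran from 4, without replicate 2 of either condition, to 14, without replicate 1 of zinc plus AhPDF1.1b. Mitochondrial ribosomal protein genes gave 24 lower and 4 higher of 56 (median -0.17), and 14 were lower without replicate 1 of either condition. Translation factors were lower in 20 of 33 cases and higher in 3 (median -0.29). With zinc alone the medians were -0.35 for ribosome biogenesis, -0.54 for cytosolic ribosomal proteins, -0.13 for mitochondrial ribosomal proteins and -0.43 for translation factors. With AhPDF1.1b alone they were -0.11, -0.09, -0.05 and -0.05 in the same order.

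Nitrogen genes changed in both directions, as did all genes (24.6% higher and 27.1% lower). The shares were 43.2% and 21.6% for nitrogen use and amino acid uptake, and 29.6% and 37.0% for amino acid synthesis. Of 37 genes for nitrogen use and amino acid uptake 16 were higher and 8 lower (median 0.08). CAR1, the arginase, read 9.69 and 9.68 in untreated yeast and 11.65 and 11.67 with zinc plus AhPDF1.1b, 3.92-fold higher, and the proline oxidase PUT1 and the allantoin permease DAL4 were 2.78-fold and 2.69-fold higher. The ammonium-assimilating enzymes GDH1 and GLT1 were 2.48-fold and 2.63-fold lower, and the ammonium permease MEP1 2.16-fold lower. The activators GLN3 and GAT1 rose by 0.65 and 0.74. In amino acid synthesis 16 of 54 genes were higher and 20 lower, and 10 were higher without replicate 1 of zinc plus AhPDF1.1b. LYS9 stood out among the lower genes with a fold of 4.95, and LYS4, LYS1 and LYS20 of the same pathway fell by 1.03, 0.61 and 0.63.

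The state of zinc plus AhPDF1.1b yeast was also set against each other condition in turn. A level that passed against untreated yeast, against zinc alone and against the defensin alone, with the same sign each time, was found for 508 genes higher (8.16%) and 375 genes lower (6.02%). Those counts were 277 and 197 with slide as a block, and 235 genes were lower without replicate 1 of zinc plus AhPDF1.1b. Both arrays of zinc plus AhPDF1.1b lay on slide 1 and both arrays of zinc alone on slide 2, so those arrays by themselves do not separate slide from defensin. The block for slide rests on the untreated and the AhPDF1.1b-only arrays, which lie on both slides. Among the higher genes the smallest of the 3 differences was largest for TIR3, HXT4, OLE1, ECM13, SFC1, RTA1, ERG3, ERG25, DAL4 and CMK2. TIR3 read 9.01 and 9.11, against 7.20 to 7.65 on the other 6 arrays. SFC1, which carries succinate and fumarate across the mitochondrial membrane, read 10.22 and 10.04, against 8.29 to 9.02. The calmodulin-dependent kinase gene CMK2 read 11.97 and 11.93, against 10.46 to 10.98, and ECM13 10.12 and 10.25, against 8.33 to 9.14. RTA1, a membrane protein of sterol-related drug resistance, read 7.74 and 7.83, against 6.27 to 6.71.

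Among the lower genes the same rule named THI4, ENO2, PHO3, PET18, MRH1, TDH2, TDH3, SSA3, PTR2 and THI20, of which 4 belong to the thiamine list and 3 to glycolysis. The plasma membrane protein MRH1 read 10.23 and 10.22, against 11.27 to 11.74 on the other 6 arrays. SSA3 read 9.51 and 9.39, against 10.47 to 10.97. PTR2, a transporter of small peptides, read 6.65 and 6.70, against 7.56 to 8.46, and was lower than untreated yeast with zinc alone (-0.39) and with the defensin alone (-0.80) as well. PHO3 read 6.71 on both arrays, against 8.53 to 9.08.

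**Figure D4:**
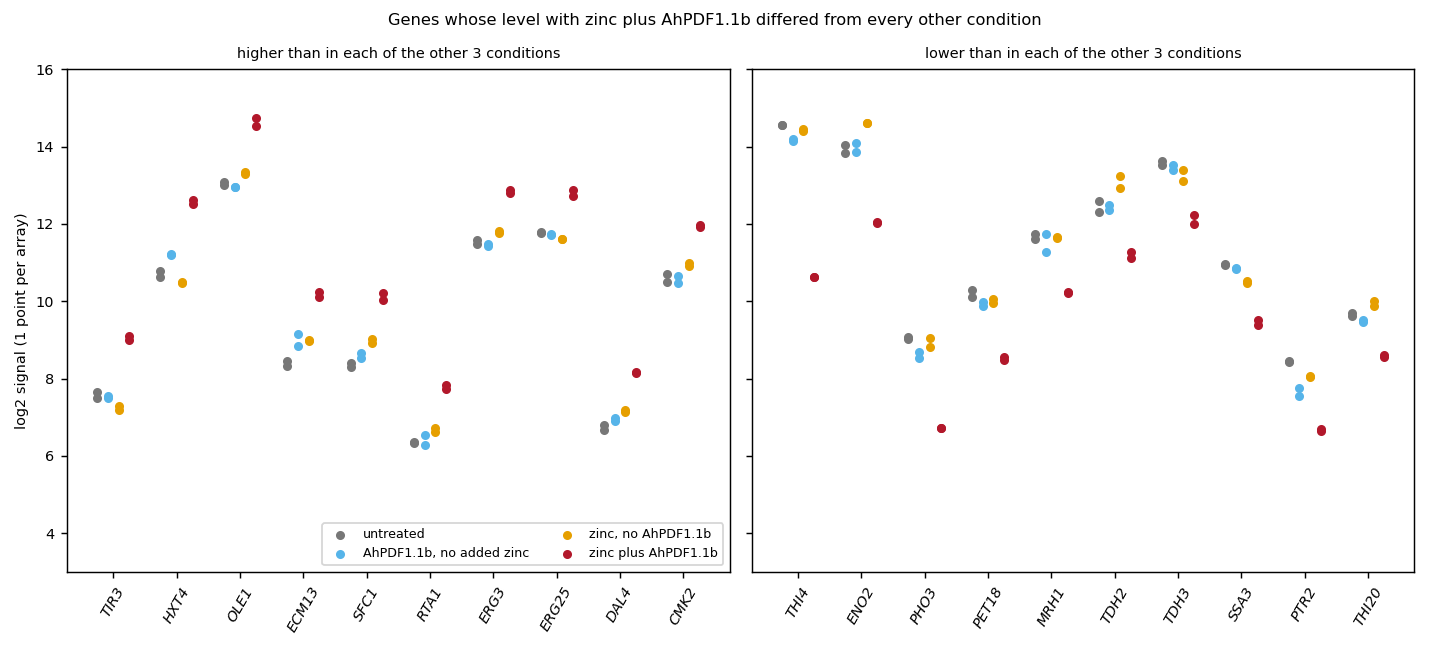
Log2 signal on all 8 arrays for the 10 named genes per direction whose level with zinc plus AhPDF1.1b (dark red) was farthest from each of the other 3 conditions, by the smallest of its 3 differences. In each column the dark red points lie outside the range of the other 6, as for TIR3 (9.01 and 9.11 against at most 7.65) and THI4 (10.64 and 10.63 against at least 14.13).

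The gene groups can be read against the background of 24.6% higher and 27.1% lower. Among the 49 lists plotted, the Aft1 regulon, chaperones, hypoxic genes and sulfate assimilation had the largest shares of higher members, 84.0%, 82.6%, 73.3% and 69.4%. Among the same lists the a-cell and pheromone genes, zinc uptake, thiamine synthesis and the vacuolar ATPase had the largest shares of lower members, 90.0%, 88.9%, 83.3% and 76.5%. The shorter list of a-cell markers, which was not plotted, had 6 of 7 members lower (85.7%). Groups near the background in both directions included heme and iron-sulfur cluster synthesis, with 22.7% and 27.3%, and oxidative defence, with 25.7% and 28.6%. Lists differ in size and share members, and no test was made between a list and the other genes.

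**Figure D5:**
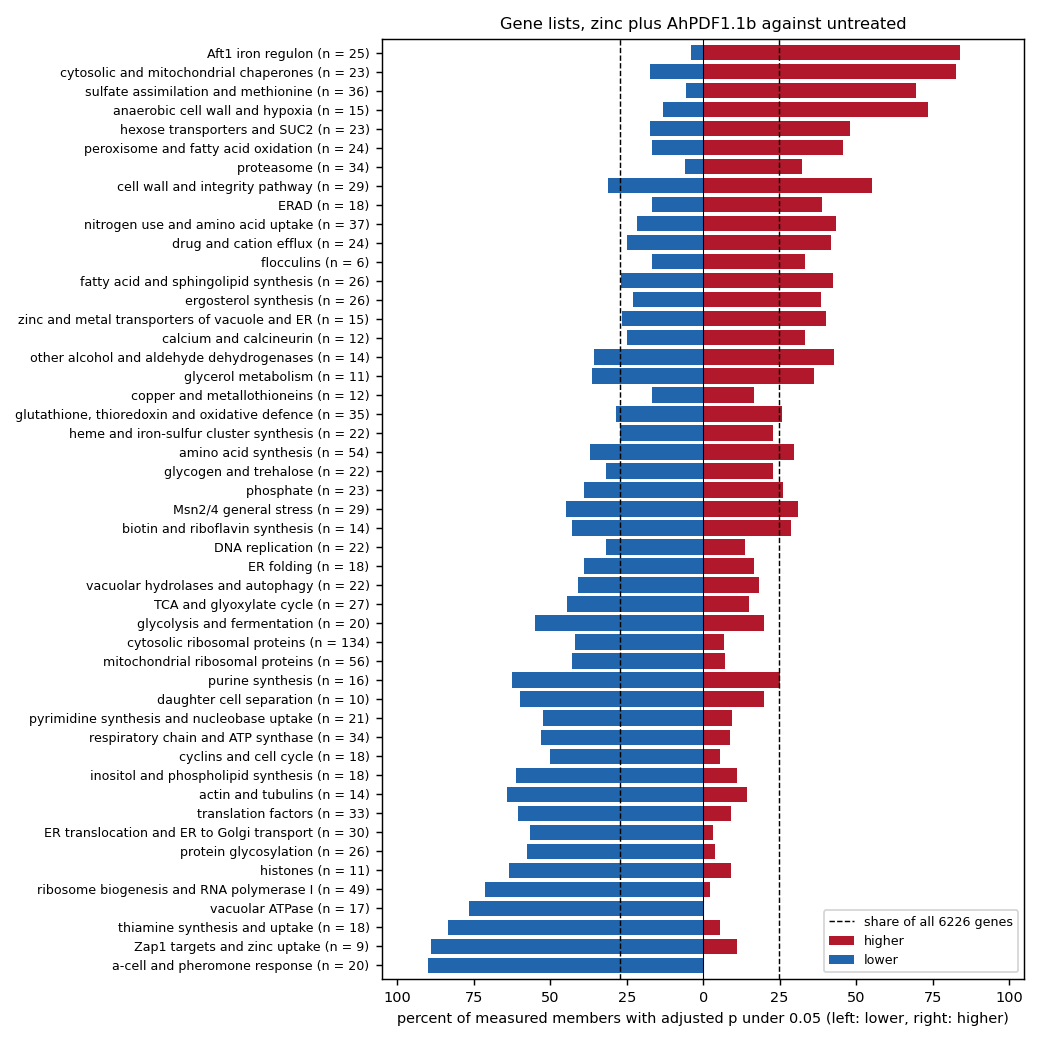
Percent of measured members that were higher (red, right) or lower (blue, left) in zinc plus AhPDF1.1b than in untreated yeast at an adjusted p under 0.05, for 49 gene lists with their number of measured genes. Dashed lines mark the shares among all 6226 genes, 24.6% higher and 27.1% lower, and the bars run from the Aft1 iron regulon at the top to a-cell and pheromone genes at the bottom.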

How the data were processed

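Total RNA of 8 BY4741 yeast samples, 2 biological replicates of each of 4 conditions taken from the sample labels, was measured on single-colour Agilent yeast arrays. The deposited values are log2 signals, 1 per probe and array, made by the authors without pooling. R 2.14.2 and limma are named in the processing notes of the submitters. The sources used here do not give how background was corrected, how arrays were normalized or what was filtered, and no limit of detection could be set. Of 6227 probes 4061 had a symbol and 2166 had none in the annotation table. Using RefSeq's R64 gene table, 125 older symbols were replaced by current ones, and both probes of FDH2 were averaged, leaving 6226 genes. The number of arrays limits the precision, and probes of near-identical genes cannot be told apart.

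The fit was made with limma 3.58.1 in R 4.3.3 on all 8 arrays, with a mean per condition (lmFit, then eBayes, 4 residual and 6.36 prior degrees of freedom), Benjamini-Hochberg adjustment over all 6226 genes and a threshold of 0.05. Errors are the standard errors of that fit (SE). The steps were tested on simulated data. Gene lists were described by counts and medians only. The members and lists were chosen with earlier results of these data known. Named genes are the 15 largest changes in each direction, the 10 per direction that differ most from all other conditions, genes of the paper and of the strain and plasmids, all members of lists with up to 13 measured genes and, of longer lists, up to 6 with the smallest p, with the regulator or first step. Further genes, which complete a count of 5 or fewer or show another step of a pathway, were named after their values were seen. The alternatives were quantile normalization, centring by the median, a filter on the dimmest 25% of genes, a block for slide or for replicate number, robust moderation with an intensity trend, weighted arrays, the brighter probe of FDH2, the 4 compared arrays alone, values within slide 1, a minimum log2 fold change of 1 and leaving out each array.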

Additional observations from a re-analysis of the deposited data

Results flagged for a closer look

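The interaction in the limma fit was read for the 15 largest increases, the 15 largest decreases and the 9 genes named by the paper. For 27 of these genes the effect of zinc differed between AhPDF1.1b yeast and yeast without it (each at an adjusted p under 0.05). Most of the genes read were picked by the difference between zinc plus AhPDF1.1b and untreated yeast, and both conditions enter this test. The share over all genes was not taken, so the count cannot be read as many or few. Each value is the log2 effect of zinc with the defensin, less its log2 effect without the defensin. Among thiamine genes THI4 had -3.4 and PHO3 -1.77, where THI5, THI12, THI11 and THI13 had 1.08, 0.974, 0.873 and 0.605. For zinc genes the difference was 1.59 in ZPS1, 0.731 in ZRT1 and -0.399 in ZRC1. For iron genes it was 0.512 in HMX1, -0.544 in FIT3, -0.472 in FIT2 and -0.387 in ISU2. For ER genes it was 0.421 in HRD1 and -0.639 in HAC1, while KAR2 was also read and did not pass. For glycolytic genes it was -1.07 in PGK1 and -0.517 in TPI1, and for TUB2, a tubulin, 0.795. Surface and transport genes had -0.53 (YPS3), 0.536 (UTR2), 0.453 (DSE2), -1.88 (MCH5) and -1.32 (TPO2). LYS9, CAR1, IME1 and PRM10 had 1.19, 0.746, 0.483 and 0.525. For ZRT1, FIT3 and FIT2 the levels under zinc, given above, hardly differed with the defensin. Their values here thus came from the arrays without added zinc. The zinc arrays with and without AhPDF1.1b lie on different slides, so those arrays by themselves do not separate slide from any part of these values that lies within zinc.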

How the results depend on the processing

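The counts against untreated yeast stayed within 1.5 times of those reported under every alternative other than a minimum log2 fold change of 1, which by construction left 293 genes, 195 higher and 98 lower, and 16 higher and 11 lower against each other condition. Leaving out each array in turn gave 2532 to 3328 genes changed, 1217 to 1578 higher and 1315 to 1750 lower, and against each other condition 373 to 512 higher and 235 to 379 lower, the 235 without replicate 1 of zinc plus AhPDF1.1b. With slide as a block the counts against each other condition were 277 and 197, and 2777 genes changed against untreated yeast. The cause was not tested. With a replicate block 3102 genes changed. The labels do not say that a number marks a shared batch, and deviations of same-numbered arrays correlated at -0.53 between the 2 conditions compared and at -0.53 to 0.54 over all 6 pairs of conditions, so the numbers were not taken to pair the samples. Crossed pairing, chosen after seeing the data, gave 3691. Of 193 named genes that passed, 10 lost their call in at least 1 alternative (ACT1, CDC48, ENO1, EPS1, FET4, JEM1, MSC2, SNO2, UBX2 and ZRT3), and of 108 list counts 34 moved by over 1.5 times with slide as a block or without 1 array. Changes of sign were seen only in genes that did not pass: MET17 was at -0.0043 with quantile normalization and -0.060 with slide as a block, LEU2 at -0.00061 with slide as a block, LEU2 at -0.026 and PDI1 at 0.090 within slide 1, and PDI1 at 0.090 with slide as a block. Leaving out each array gave -0.026 to 0.056 for LEU2, -0.15 to 0.090 for PDI1, -0.025 to 0.24 for FRE4 and -0.0067 to 0.21 for SAG1. The small number of arrays and the unknown detection limit bound what dim genes can show.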

Other observations

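Gene groups outside the account above also had members that differed between zinc plus AhPDF1.1b yeast and untreated yeast. Of all genes 24.6% were higher and 27.1% lower, so changed members alone do not set a group apart. Glycogen and trehalose genes, with 22.7% higher and 31.8% lower, lay near these shares. Histone genes, with 9.1% and 63.6%, lay farther from them. No test was made between a group and the other genes. In purine synthesis 10 of 16 measured genes were lower and 4 higher, with IMD2, IMD3 and IMD4, which start guanine nucleotide synthesis, at -1.37, -0.96 and -0.90. In pyrimidine synthesis and nucleobase uptake 11 of 21 were lower and 2 higher, with URA7, the CTP synthase, at -1.16. DNA replication gave 7 lower and 3 higher of 22, the ribonucleotide reductase genes RNR2, RNR1 and RNR4 being at -1.22, -1.06 and -0.86. Of 11 histone genes 7 were lower and 1 higher, HTZ1 and HTB2 being at -0.76 and -0.85. Of 14 actin and tubulin genes 9 were lower, TUB2, TUB1 and ACT1 among them (-0.76, -0.57 and -0.31), and CRN1, coronin, was 1.1 higher. ACT1 and TUB1 are often used as reference genes, and both passed as lower here, ACT1 no longer so at -0.21 without replicate 1 of zinc plus AhPDF1.1b and at -0.22 without replicate 1 of untreated yeast.

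Of 23 phosphate genes 6 were higher and 9 lower, the phosphate transporter PHO84 rising 2.19-fold, where AhPDF1.1b alone gave -1.16 on the log2 scale. Of 24 genes for drug and cation efflux 10 were higher and 6 lower, PDR15 being at -1.38 and the sodium pumps ENA1 and ENA2 at -0.93 and -0.97. Peroxisome and fatty acid oxidation gave 11 higher and 4 lower of 24, with FOX2 and POT1, enzymes of beta-oxidation, at 0.85 and 0.82. RCN1, an inhibitor and target of calcineurin, was 2.13-fold higher, and 4 of 12 calcium genes were higher and 3 lower. FLO11, a flocculin, was 2.65-fold lower, and FLO1 was 0.51 higher. Of 14 alcohol and aldehyde dehydrogenases outside glycolysis 6 were higher and 5 lower, ALD5 at 1.48 and ALD6 at -0.96. Of 22 glycogen and trehalose genes 5 were higher and 7 lower, of 11 glycerol genes 4 and 4, of 22 vacuolar hydrolase and autophagy genes 4 and 9, and of 12 copper and metallothionein genes 2 and 2. In the lists of this paragraph and the last, 15 of the 30 counts moved by over 1.5 times with slide as a block or when 1 array was left out.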
